A study of Apis mellifera with 18 samples.

Results

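Homeobox genes encode transcription factors that bind DNA through a homeodomain, and several of them decide which kind of appendage a body segment of an insect forms. A group of 13 homeobox genes was followed in honey bee (Apis mellifera) mouthparts and in tissue that the labels call tentacles. The members were 6 genes whose deposited protein domain (Pfam) entry holds the word Homeobox, 4 POU genes whose entry holds the word in lower case, and 3 rows given by identifier, GB51302 (proboscipedia), GB51295 (H55) and GB49751 (SIX3). They are 13 of 17545 genes in the table, and the capital spelling with the 3 named rows would give 9. Most homeobox genes of the table carry the Pfam entry Homeodomain instead, and the 62 of these that are not members were used for comparison. The 3 named rows had been chosen with their difference between tissues already known, so their tissue values are a description with no test. GB45925 passed the filter on low counts through the tentacles only, so its tissue values are a description too, and the other 9 members were tested.

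There were 6 groups of 3 libraries each. Mouthparts came from bees that collected Olea europaea pollen (olea), from bees that collected pear pollen (pear) and from control bees without pollen, and tentacles came from bees of the same 3 kinds. The series text calls the bees Italian, and the labels give no age and do not say whether a library is a single bee, a pool or a repeated preparation, so the spread behind each p-value is that between these libraries and may be technical. The 3 mouthparts libraries counted as olea say pear in their title and source and olea in their genotype entry. Every olea value of the mouthparts rests on the genotype entry.

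Library totals ran from 25.9 to 40.3 M counts (1e6) in the mouthparts and from 26.4 to 41.4 M in the tentacles. Levels below are counts per 1e6 counts after TMM scaling (CPM), except where FPKM, the deposited value per kilobase of transcript, is named so that genes can be compared with each other. The labelled tissues were checked with marker genes. The 144 odorant receptor genes summed to 63.7 to 103 CPM in the mouthparts and 2227 to 2712 CPM in the tentacles, and the receptor partner Orco (GB40730) averaged 1.55 ± 2.27 CPM and 514.9 ± 73.2 CPM (SD, n = 9 each). The 8 neuron markers summed to 526 to 584 CPM in the mouthparts and 1052 to 1271 CPM in the tentacles. The 8 muscle markers summed to 23130 to 38930 CPM in the mouthparts and 2629 to 4271 CPM in the tentacles, and the 28 royal jelly family genes to 10300 to 102200 CPM and 1047 to 27610 CPM. In whole tissue, fewer cells of a type and less RNA per cell cannot be told apart.

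In Drosophila the Hox genes proboscipedia and Sex combs reduced specify the labial mouthparts, Deformed acts in the mandible and maxilla, and antenna forms where Hox activity is lacking. Homothorax carries extradenticle into the nucleus, and together they are partners of Hox proteins and, without them, help to make antenna. POU factors act later as well, in the differentiation of neurons, trachea and limb joints, and iroquois genes set up territories in eye, wing and sensory organs.

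The mouthparts held high levels of proboscipedia, H55 and SIX3, and the tentacles held almost none. H55 lies between the Hox-B4-type gene GB51294 and Deformed in the order of identifiers, the place that Sex combs reduced takes in other insect Hox clusters. Proboscipedia (GB51302) had a lowest, median and highest level of 66.6, 84.6 and 106 CPM over the 9 mouthparts libraries, against 0, 0.119 and 0.300 CPM over the 9 tentacles libraries. H55 (GB51295) had 24.97, 32.2 and 38.8 CPM in mouthparts, against 0, 0.0588 and 0.180 CPM in tentacles. SIX3 (GB49751), whose Drosophila counterpart Optix acts in the eye and the front of the head, had 10.3, 12.3 and 17.1 CPM in mouthparts, against 0, 0.109 and 0.224 CPM in tentacles. For each of these genes every mouthparts library lay above every tentacles library, by a wide gap.

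The raw counts show how little there was in the tentacles. Proboscipedia had 22836 counts over all mouthparts libraries and 46 over all tentacles libraries, a ratio of 507 after scaling to the library totals (exact 95% interval 380 to 692, which covers counting error only, since reads carried no molecular identifiers). H55 had 8314 and 25 counts, a ratio of 340 (230 to 525). SIX3 had 3539 and 35 counts, a ratio of 103 (74.1 to 148). Ranked by fitted fold change among the 13361 genes of the tissue comparison, proboscipedia was rank 1 of the genes higher in mouthparts, H55 rank 4 and SIX3 rank 19. The ranks of proboscipedia and H55 rest in part on the absence of counts described next.

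Within the tentacles the few counts were not spread evenly over the pollen groups. Olea tentacles had 0 counts of proboscipedia in all 3 libraries, pear tentacles had 4, 9 and 10, and control tentacles had 6, 13 and 4. Olea tentacles also had 0 counts of H55 in all 3 libraries, against 2, 0 and 6 in pear and 7, 6 and 4 in control tentacles. With a floor of 3 counts over the olea group, proboscipedia was at least 7.17-fold lower in olea than in pear tentacles. It was at least 5.84-fold lower than in control tentacles, and H55 at least 4.31-fold lower than in control tentacles. These bounds take the pear and control counts as exact, and leave out their counting error and the spread between libraries. Against pear the bound for H55 was 2.49-fold, but 6 of the 8 pear counts lay in pear replicate 3, and without it the 2 counts left are under the floor and give no bound. Without olea replicate 2 the bounds for proboscipedia were 4.62-fold against pear and 3.76-fold against control, and those for H55 1.61-fold and 2.78-fold. Leaving out olea replicate 1 or 3 gave 4.94-fold or 4.78-fold against pear and 4.02-fold or 3.89-fold against control for proboscipedia. For H55 the bounds were 1.72-fold or 1.66-fold and 2.97-fold or 2.87-fold. Leaving out these libraries was an alternative chosen after seeing the data. With any olea library left out the count stays 0 and the floor 3, so the bounds fall only because the olea total falls. SIX3 differed in this, with 2, 0 and 7 counts in olea, 5, 0 and 2 in pear and 5, 10 and 4 in control tentacles. Against olea tentacles, olea mouthparts held proboscipedia at least 1835-fold higher and H55 at least 724-fold higher. Low counts of a gene typical of the other tissue varied by group in the mouthparts too, as Orco had 17 counts over the olea mouthparts, 0 over the pear mouthparts and 330 over the control mouthparts. The royal jelly family summed to 1072 to 1092 CPM in olea, 1047 to 1070 CPM in pear and 17500 to 27610 CPM in control tentacles. The part of either in the low counts was not tested.

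The other genes of the Hox cluster place proboscipedia and H55 in context. Of the 10 cluster genes, 9 were placed on linkage group 16 in the RefSeq gene table, in the order of their identifiers. Per transcript length, the mouthparts had 3 genes at a high level: Deformed (GB51299) at 48.0 ± 8.55 FPKM, proboscipedia at 25.6 ± 5.02 FPKM and H55 at 23.3 ± 3.07 FPKM (SD, n = 9 each). In tentacles the same genes stood at 2.05 ± 0.372, 0.0470 ± 0.0433 and 0.0571 ± 0.0601 FPKM. Deformed was thus still measurable in tentacles, with a count ratio of 23.7 (22.8 to 24.6) between mouthparts and tentacles, far below that of the other two. The labial-type gene Hox-B1a (GB51303) lay at 1.35 ± 0.150 FPKM in mouthparts and 1.27 ± 0.174 FPKM in tentacles. In CPM it was higher in mouthparts, at 3.158 ± 0.321 against 2.455 ± 0.322 in tentacles. The genes of the trunk were low in both tissues: Antennapedia (GB51292) had 1.10 ± 0.199 FPKM in mouthparts and 0.172 ± 0.0794 FPKM in tentacles, Ultrabithorax (GB51290) had 165 counts in mouthparts and 0 in tentacles, and abdominal-A (GB51287) had 0 counts in both. Abdominal-B (GB51284) had 42 counts in mouthparts and 4 in tentacles, a count ratio of 10.7 (3.89 to 41.2). The Hox-B4-type gene beside H55 had 41 counts in mouthparts and 0 in tentacles, and the Hox-B3-type gene (GB51301) beside proboscipedia had 121 and 4.

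**Figure D1:**
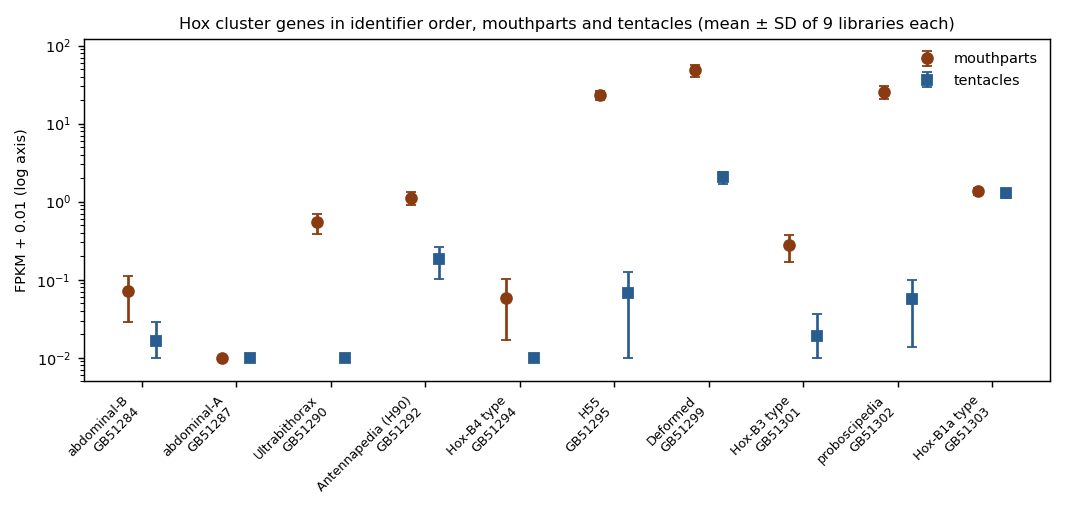
Mean FPKM of the 10 Hox cluster genes in mouthparts (circles) and tentacles (squares), in the order of their identifiers, on a log axis after adding 0.01. Bars are SD over 9 libraries, and a lower bar stops where the mean less the SD would fall below 0. Deformed, proboscipedia and H55 stand above 20 FPKM in mouthparts, and Hox-B1a is at about the same FPKM in both tissues, though not in CPM.

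Of the 9 members that were tested between tissues, 6 were higher in mouthparts, 2 were lower and 1 did not pass (edgeR quasi-likelihood test, adjusted p under 0.05). Over all genes tested, 82.5% passed, 39.2% higher and 43.3% lower, so the share of members is near the background. The median absolute log2 difference of the 9 was 0.65, and that of all genes 0.61. The 6 higher members had differences of 0.36 to 1.33 on the log2 scale. With TMM scaling the median difference of all genes was -0.05, on log2(FPKM + 1) it was -0.25, and limma on these FPKM values gave 4 members higher and 3 lower.

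Among the members outside the test, GB45925 ran opposite to the 3 named rows. It is named inhibitory POU protein, the counterpart of the Drosophila gene acj6, which sets the identity of olfactory neurons and their choice of odorant receptor. Its lowest, median and highest levels were 0.0831, 0.212 and 0.394 CPM in mouthparts, against 23.0, 29.7 and 31.1 CPM in tentacles. It had 55 counts over all mouthparts libraries and 8895 over all tentacles libraries, a mouthparts to tentacles count ratio of 0.00631 (exact 95% interval 0.00475 to 0.00822, counting error only). No library of either tissue came near the other. By fitted fold change it ranked 106 among genes lower in mouthparts. The odorant receptor sums given above move with this gene across the tissues, and 6 of the 8 neuron markers were lower and 2 higher in mouthparts, with a median log2 difference of -1.22; their part in the difference was not tested.

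The other 3 POU genes were present in both tissues. GB50962, named POU domain protein CF1A and the counterpart of Drosophila ventral veins lacking, a regulator of trachea, epidermis and neurons, was the member with the highest FPKM in both tissues, 66.2 ± 10.4 in mouthparts and 31.8 ± 3.94 in tentacles (SD, n = 9 each). Its levels were 89.9, 111 and 143 CPM in mouthparts, against 30.9, 46.0 and 49.1 CPM in tentacles, with no overlap (log2 difference 1.33 ± 0.06, SE, adjusted p = 4.99e-13). GB47788, POU class 6, whose Drosophila counterpart pdm3 acts in olfactory neurons, had 16.8, 23.9 and 27.2 CPM in mouthparts, against 11.99, 14.8 and 17.2 CPM in tentacles. It was higher in mouthparts by 0.65 ± 0.06 (adjusted p = 1.04e-08), although control replicate 1 of the mouthparts lay within the range of the tentacles. GB53100, POU class 2, related to the Drosophila genes nubbin and pdm2 of wing and leg joints, had 3.58, 4.54 and 6.95 CPM in mouthparts, against 11.4, 14.9 and 17.7 CPM in tentacles. It was lower in mouthparts by a log2 difference of -1.61 ± 0.08 (adjusted p = 1.67e-13), with no overlap between the tissues.

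The homothorax genes differed little between the tissues. GB48653 and GB48655 both have the single honey bee homothorax gene as their best hit, the first with the Meis domain and the second with the homeobox domain, so they may be pieces of a gene model, and reads could be split between them. In FPKM they stood at 16.5 ± 1.96 and 16.1 ± 2.83 in mouthparts and at 13.7 ± 1.73 and 15.1 ± 1.86 in tentacles (SD, n = 9 each). GB48653 ranged from 15.3 to 23.0 CPM in mouthparts, against 10.3 to 15.4 CPM in tentacles, with a log2 difference of 0.55 ± 0.07 (adjusted p = 6.91e-07). GB48655 ranged from 10.3 to 17.4 CPM in mouthparts, against 7.23 to 11.9 CPM in tentacles, with a log2 difference of 0.37 ± 0.09 (adjusted p = 5.90e-04). On log2(FPKM + 1) the difference of GB48655 was 0.08 and did not pass (limma adjusted p = 0.339). GB49375, whose best hit is the homothorax gene of a termite, ranged from 38.4 to 58.2 CPM in mouthparts, against 25.1 to 49.7 CPM in tentacles. Its log2 difference of 0.36 ± 0.04 passed (adjusted p = 2.94e-08), but on log2(FPKM + 1) it was 0.07 with a limma adjusted p of 0.0807. The partner gene extradenticle, no member, differed as little, with 15.6 ± 1.53 CPM in mouthparts and 17.7 ± 2.01 CPM in tentacles for GB51904 (log2 difference -0.18 ± 0.06, adjusted p = 0.00534). It is 1 of 2 rows with that name. Together the 2 rows summed to 14.5 to 20.2 CPM in mouthparts and 15.7 to 21.85 CPM in tentacles.

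The iroquois genes went in different directions. GB45632, named IRX-6, ranged from 11.5 to 17.3 CPM in mouthparts, against 7.46 to 9.53 CPM in tentacles, with no overlap (log2 difference 0.75 ± 0.06, adjusted p = 2.46e-10). GB55196, an IRX-4 type by its Swiss-Prot hit, ranged from 3.66 to 6.35 CPM in mouthparts, against 12.9 to 17.1 CPM in tentacles, again with no overlap (log2 difference -1.84 ± 0.09, adjusted p = 1.67e-13). GB55198, which has an IRX-4 hit too, was the lowest member after the scarce ones, with 0.659 to 1.56 CPM in mouthparts and 0.978 to 1.80 CPM in tentacles. Its difference of -0.24 ± 0.14 did not pass (adjusted p = 0.106), and on log2(FPKM + 1) it was -0.13 and passed (limma adjusted p = 0.00414). The KEGG hit of both IRX-4 types is to a tolloid protein of a flatworm, so their names rest on the homeobox and Swiss-Prot entries.

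**Figure D2:**
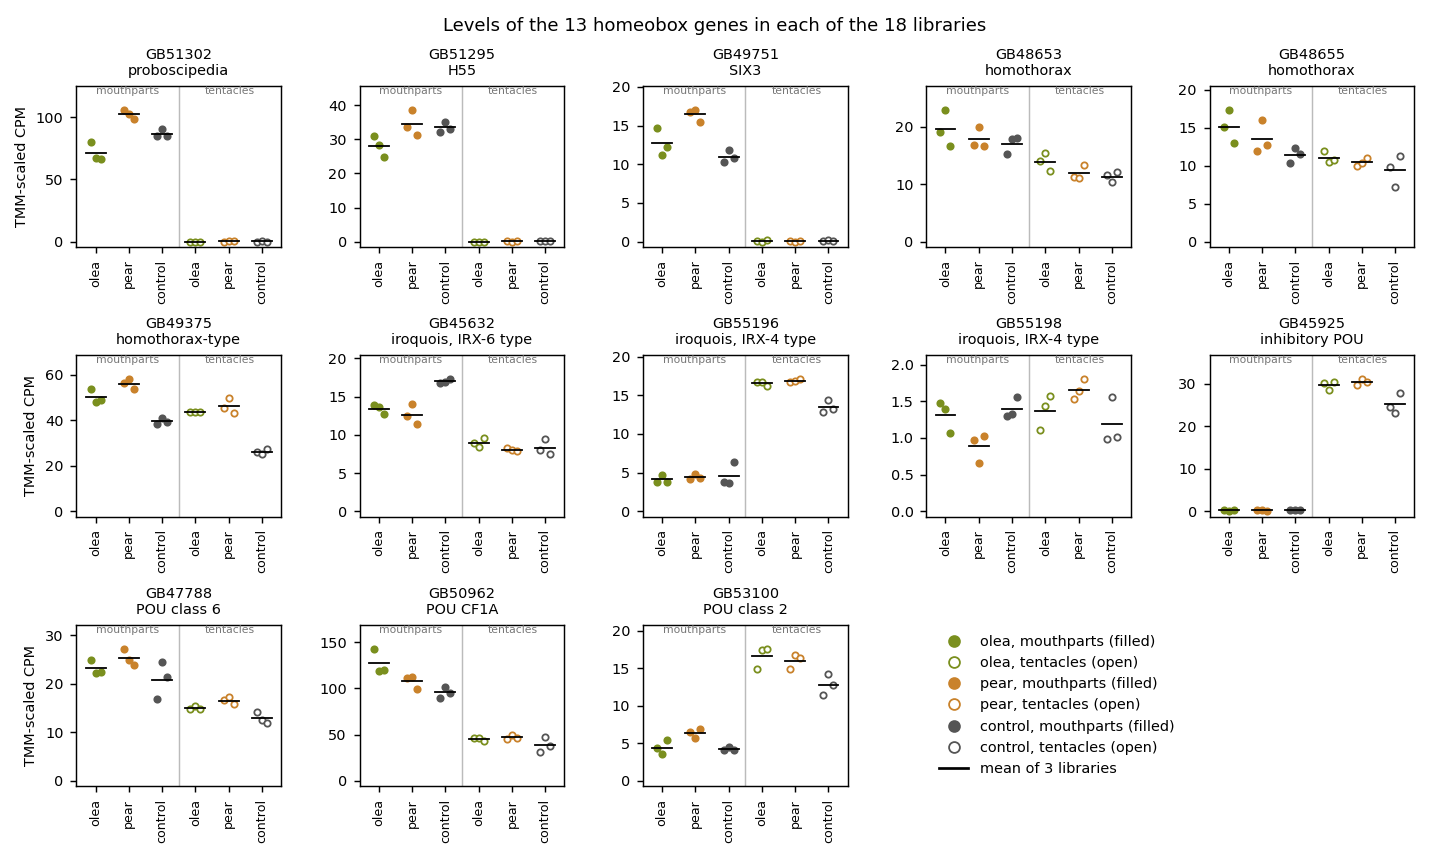
TMM-scaled CPM of the 13 homeobox genes in each library, mouthparts (filled) left of tentacles (open), with the olea, pear and control groups in each tissue and a line at the mean of 3 libraries. Proboscipedia, H55 and SIX3 are near 0 in all tentacles libraries, GB45925 is below 0.4 CPM in all mouthparts libraries, and the homothorax genes overlap between tissues.

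Tissue differences were also tested inside each pollen group. Within olea 8 of the 9 tested members passed (6 higher and 2 lower in mouthparts), within pear 9 (6 higher and 3 lower) and within control 7 (5 higher and 2 lower), where 75.6% (35.3% higher and 40.3% lower), 68.5% (33.2% higher and 35.3% lower) and 70.3% (34.4% higher and 36% lower) of all genes passed. GB50962 differed by 1.48 in olea, 1.19 in pear and 1.32 in control on the log2 scale. GB45925, with no test, had mouthparts to tentacles count ratios of 0.00500 in olea (exact 95% interval 0.00266 to 0.00857), 0.00521 in pear (0.00318 to 0.00806) and 0.00918 in control (0.00574 to 0.0139). GB48655 did not pass within control (0.28 ± 0.15, adjusted p = 0.106), but did without tentacles control replicate 3 (0.0225). It failed within pear without mouthparts pear replicate 2 (adjusted p = 0.185), tentacles pear replicate 1 (0.0883) or tentacles pear replicate 2 (0.0721), and within olea without mouthparts olea replicate 2 (0.0602). GB49375 failed within olea without mouthparts olea replicate 1 (0.0509). On log2(FPKM + 1) with limma the homothorax genes lost most of these calls: GB48653 had 0.19 in olea (adjusted p = 0.110) and 0.21 in control (0.0814), GB48655 had 0.15 in olea (0.294) and 0.15 in pear (0.317), and GB49375 had -0.0805 in olea (0.250) and 0.0732 in pear (0.310). Within olea 5 of the 9 members passed on that scale. GB55198 passed within pear only, with -0.89 ± 0.24 (adjusted p = 0.00238), against -0.06 ± 0.24 in olea and 0.23 ± 0.24 in control. Without the olea libraries of both tissues the tissue comparison again had 6 members higher and 2 lower.

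**Figure D3:**
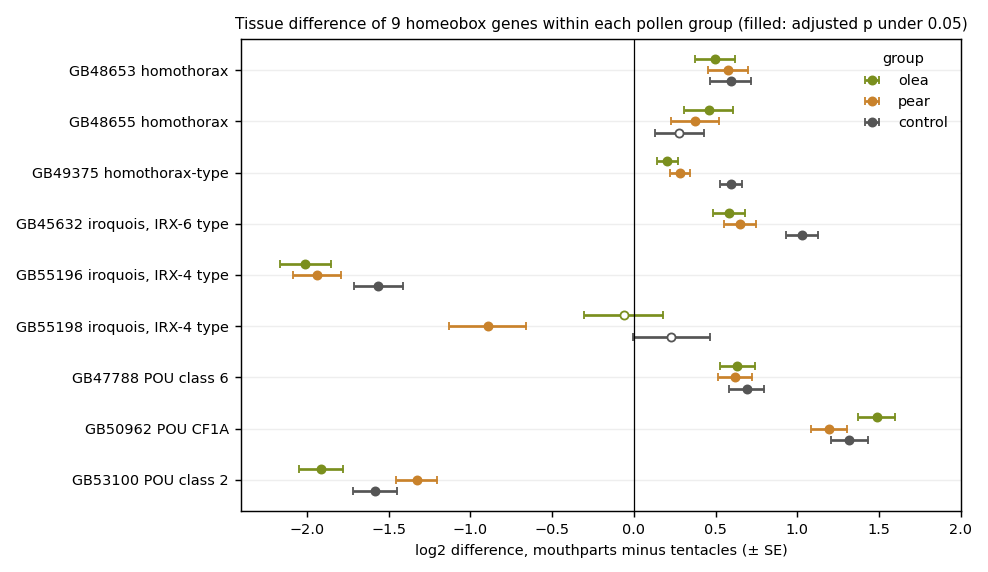
Log2 difference, mouthparts minus tentacles, with its standard error for the 9 tested members within olea, pear and control. Filled points passed at adjusted p under 0.05. GB50962 is highest in each group, and GB53100 and GB55196 are below 0 in all 3.

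Among the 62 other genes with a Homeodomain entry, 27 passed the filter in both tissues, and 12 of these were higher and 14 lower in mouthparts (96.3%, where 82.5% of all genes passed), with a median absolute log2 difference of 0.98. The limb gene Distal-less (GB40095), which in insects is needed for the outer part of appendages, was abundant in both tissues, with 182.5 ± 42.8 CPM in mouthparts and 458 ± 57.2 CPM in tentacles (log2 difference -1.35 ± 0.03, adjusted p = 2.88e-18). The SIX2 gene GB42027 followed the direction of SIX3, with 16.0 ± 3.18 CPM in mouthparts and 0.815 ± 0.169 CPM in tentacles (log2 difference 4.29 ± 0.12, adjusted p = 5.27e-17). The SIX6 gene GB55286 had 107 counts in mouthparts and 0 in tentacles, at least 36.4-fold higher in mouthparts. Of 57 appendage patterning genes outside the homeobox class, 49 passed the filter in both tissues, and 12 were higher, 29 lower and 8 did not pass (83.7% passed, near the background; the share lower was 43.3% over all genes). The smallest p-values were those of GB54493, an aryl hydrocarbon receptor of the class of Drosophila spineless, which gives the antenna its identity, at 4.02 ± 0.986 CPM in mouthparts and 149 ± 18.01 CPM in tentacles (log2 difference -5.23 ± 0.06, adjusted p = 1.53e-23), and of the Sp9 gene GB48278, at 4.62 ± 1.11 CPM and 242 ± 31.4 CPM (log2 difference -5.73 ± 0.07, adjusted p = 1.34e-22). Both are among the 29 lower genes, and the 12 higher ones are not described here.

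Pollen groups were then compared within the mouthparts, where 12 members could be tested and GB45925 was too low. The comparisons with control share the 3 control libraries. Between olea and control 5 of the 12 passed, 3 higher and 2 lower in olea, where 26.8% of all genes passed (12% higher and 14.8% lower). Between pear and control 5 passed, 4 higher and 1 lower in pear, where 33.8% of all genes passed (16.5% higher and 17.3% lower). Between olea and pear 5 passed, 1 higher and 4 lower in olea, where 30.9% of all genes passed (14.9% higher and 15.9% lower).

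The mouthparts Hox gene proboscipedia was lowest in olea and highest in pear. It had 79.8, 67.2 and 66.6 CPM in olea mouthparts, 106, 102 and 98.8 CPM in pear mouthparts and 84.6, 90.6 and 84.6 CPM in control mouthparts, and the 3 groups do not overlap. Its log2 differences were -0.51 ± 0.08 for olea minus pear (adjusted p = 4.35e-04), -0.27 ± 0.08 for olea minus control (adjusted p = 0.0221) and 0.25 ± 0.07 for pear minus control (adjusted p = 0.0237). H55 had 31.0, 28.4 and 24.97 CPM in olea, 33.7, 38.8 and 31.4 CPM in pear and 32.2, 35.2 and 33.1 CPM in control mouthparts. It was lower in olea than in pear by a log2 difference of -0.29 ± 0.10 (adjusted p = 0.0379), and its difference of -0.24 ± 0.10 from control did not pass (adjusted p = 0.0892). SIX3 had 14.7, 11.2 and 12.3 CPM in olea, 16.7, 17.1 and 15.5 CPM in pear and 10.3, 11.8 and 10.8 CPM in control mouthparts. Pear stood above both other groups, by 0.59 ± 0.11 over control (adjusted p = 0.00177), and olea minus pear was -0.36 ± 0.11 (adjusted p = 0.0289). The 4 photoreceptor markers (opsins) moved in the same libraries, with sums of 33.8 to 60.9 CPM in olea, 5.91 to 7.84 CPM in pear and 45.8 to 50.7 CPM in control mouthparts. For pear minus control 2 of the 4 were lower, the long-wavelength opsin Lop1 (GB50196) and the blue opsin Blop (GB41643), and 0 higher. For olea minus pear the same 2 genes were higher, and their part in the differences of SIX3 was not tested. Deformed, the neighbour of H55 in the cluster, had a pear minus control difference of 0.43 ± 0.06 (adjusted p = 2.05e-04, GB51299). A higher level in pear was common in the wider class. Of the 33 other homeodomain genes tested in mouthparts, 14 were higher in pear than in control and 3 lower. Over all genes 16.5% were higher and 17.3% lower.

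Of the remaining members, GB49375 of the homothorax type was higher in both pollen groups. It had 53.8, 48.0 and 49.0 CPM in olea, 56.5, 58.2 and 53.7 CPM in pear and 38.4, 41.0 and 39.4 CPM in control mouthparts, and no pollen library overlaps the control. Its log2 differences were 0.36 ± 0.07 for olea minus control (adjusted p = 0.00218) and 0.51 ± 0.07 for pear minus control (adjusted p = 1.24e-04). The iroquois gene GB45632 was lower in both, with 13.9, 13.6 and 12.7 CPM in olea, 12.5, 13.96 and 11.5 CPM in pear and 16.7, 16.9 and 17.3 CPM in control mouthparts (log2 differences -0.32 ± 0.09 with adjusted p = 0.0220, and -0.42 ± 0.09 with adjusted p = 0.00378). The POU gene GB50962 had 143, 118 and 119.5 CPM in olea, 111, 112 and 99.3 CPM in pear and 89.9, 101.6 and 95.3 CPM in control mouthparts, and was higher in olea than in control by 0.43 ± 0.08 (adjusted p = 0.00284) and than in pear by 0.25 ± 0.08 (adjusted p = 0.0346). The POU gene GB53100 stood out in pear, with 4.35, 3.58 and 5.39 CPM in olea, 6.53, 5.68 and 6.95 CPM in pear and 4.17, 4.54 and 4.12 CPM in control mouthparts. Its pear minus control difference was 0.58 ± 0.16 (adjusted p = 0.0127) and its olea minus pear difference -0.51 ± 0.16 (adjusted p = 0.0249).

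The homothorax gene GB48655 had 15.1, 17.4 and 12.97 CPM in olea and 10.3, 12.3 and 11.6 CPM in control mouthparts (0.43 ± 0.14, adjusted p = 0.0362). In replicate 2 of the olea and pear mouthparts the muscle markers summed to 35800 and 38930 CPM, against 25180 to 25420 and 23130 to 24790 CPM in the other libraries of the 2 groups, and GB48653 and GB48655 were highest of their group in the same libraries. Without the replicate 2 libraries of the 3 mouthparts groups, GB48655 had 0.39 and lost its call (adjusted p = 0.0632). The part of muscle in these values was not tested. The members GB47788, GB48653, GB55196 and GB55198 passed in none of the 3 mouthparts comparisons, the nearest being GB55198 in pear minus control (-0.64 ± 0.25, adjusted p = 0.0638).

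Leaving out 1 library ended several of these mouthparts calls and added a few. For olea minus pear, GB51302 passed throughout, and GB49375 passed without olea replicate 1 (adjusted p = 0.0447). GB51295 failed without control replicate 1, 2 or 3 (adjusted p = 0.0685, 0.0638 and 0.0703), pear replicate 1 or 2 (0.0678 and 0.144) or olea replicate 2 or 3 (0.0898 and 0.151). GB49751 failed without control replicate 3 (0.0519), pear replicate 1 or 2 (0.0775 and 0.0750) or olea replicate 2 or 3 (0.122 and 0.0980). GB53100 failed without pear replicate 1 or 3 (0.0668 and 0.0920) or olea replicate 1 or 2 (0.0617 and 0.0959), and GB50962 without pear replicate 2 or 3 (0.0549 and 0.104) or olea replicate 1 (0.142). For olea minus control, GB49375 and GB50962 passed throughout, and GB51295 passed without olea replicate 1 (0.0450). GB51302 failed without control replicate 1 or 2 (0.0521 and 0.0899) or olea replicate 2 or 3 (0.0710 and 0.0832), GB45632 without control replicate 1, 2 or 3 (0.0621, 0.0656 and 0.0739) or olea replicate 3 (0.0752), and GB48655 without any control replicate (0.130, 0.0508 and 0.0789) or olea replicate 1 or 2 (0.0783 and 0.123). For pear minus control, GB45632, GB49375 and GB49751 passed throughout, and GB47788 passed without control replicate 2 (0.0290). GB51302 failed without control replicate 1 or 3 (0.0974 and 0.0934) or pear replicate 1 (0.0817), and GB53100 without control replicate 1 or 3 (0.0505 and 0.0508). On log2(FPKM + 1) with limma, GB51302 in olea minus control (adjusted p = 0.0657) and GB50962 in olea minus pear (0.215) failed, while GB49375 passed in olea minus pear (0.0217) and GB47788, GB48655 and GB50962 passed in pear minus control (0.0263, 0.0297 and 0.0213). On that scale the median difference of all genes moved too. It was 0.11 for pear minus control and -0.08 for olea minus pear, against 0.01 and -0.01 with TMM scaling. With all 18 libraries in the fit, GB49751, GB50962 and GB51295 failed in olea minus pear (0.182, 0.103 and 0.0937) and GB51302 in pear minus control (0.0516), where GB47788 and GB55198 passed (0.0458 and 0.0460).

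In the tentacles 10 members could be tested, as the 3 named rows were too low. Between olea and control 4 of the 10 were higher in olea and 0 lower, where 27.9% of all genes passed, 14.4% higher and 13.5% lower. Between pear and control 5 were higher in pear and 0 lower, where 29.5% of all genes passed, 14.9% higher and 14.6% lower. Between olea and pear 0 of the 10 passed with edgeR, 0 had an unadjusted p under 0.05 and 0 passed with DESeq2, where 2.6% of all genes passed, 1.91% higher and 0.695% lower. The muscle markers moved in the same libraries, with sums of 3687 to 3747 CPM in olea, 2629 to 2687 CPM in pear and 3763 to 4271 CPM in control tentacles. Of the 7 muscle markers tested, 4 were lower in olea and 6 in pear than in control, and 6 were higher in olea than in pear. Their part in the member differences was not tested.

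The change in GB49375 was the most marked one. This homothorax-type gene had 43.5, 43.7 and 43.6 CPM in olea, 45.4, 49.7 and 43.4 CPM in pear and 26.1, 25.1 and 27.6 CPM in control tentacles, and each pollen library lay far above every control library. The log2 differences were 0.72 ± 0.07 for olea minus control (adjusted p = 1.30e-05) and 0.80 ± 0.07 for pear minus control (adjusted p = 4.19e-06). The royal jelly family sums, low in both pollen groups and high in control, moved the opposite way to GB49375 in both tissues, at 11690 to 14480 CPM in olea, 10300 to 11970 CPM in pear and 94690 to 102200 CPM in control mouthparts, and as given above in tentacles; their part in its difference was not tested. The other homothorax genes did not pass, with olea minus control values of 0.29 ± 0.11 for GB48653 (adjusted p = 0.0777) and 0.22 ± 0.14 for GB48655 (adjusted p = 0.263). The POU gene GB45925 had 30.0, 28.6 and 30.5 CPM in olea, 29.7, 31.1 and 30.4 CPM in pear and 24.5, 23.0 and 27.9 CPM in control tentacles. It was higher by 0.23 ± 0.08 in olea (adjusted p = 0.0398) and by 0.26 ± 0.08 in pear (adjusted p = 0.0204). The neuron marker sum moved the same way, at 1227 to 1253 CPM in olea, 1221 to 1271 CPM in pear and 1052 to 1066 CPM in control tentacles, and so did the odorant receptor sum, at 2589 to 2638, 2674 to 2712 and 2227 to 2522 CPM in the same groups. Of the 8 neuron markers 4 were higher in olea and 3 in pear, and 0 were lower. Their part in the difference of GB45925 was not tested.

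The iroquois gene GB55196 had 16.7, 16.8 and 16.2 CPM in olea, 16.7, 16.9 and 17.1 CPM in pear and 12.9, 14.4 and 13.2 CPM in control tentacles, with no overlap between pollen groups and control. It was higher by 0.28 ± 0.08 in olea (adjusted p = 0.0183) and by 0.31 ± 0.08 in pear (adjusted p = 0.00997). The POU gene GB53100 had 14.9, 17.5 and 17.7 CPM in olea, 14.9, 16.8 and 16.4 CPM in pear and 11.4, 14.3 and 12.8 CPM in control tentacles (0.37 ± 0.10 with adjusted p = 0.0209 in olea, 0.31 ± 0.10 with adjusted p = 0.0411 in pear). GB47788 passed in pear only, with 16.5, 17.2 and 15.8 CPM in pear and 14.1, 12.6 and 11.99 CPM in control tentacles (0.34 ± 0.09, adjusted p = 0.0107), and its olea value was 0.20 ± 0.09 (adjusted p = 0.111). GB45632, GB48653, GB48655, GB50962 and GB55198 passed in neither comparison. Control replicate 2 of the tentacles was the highest control library for GB50962, at 46.9 CPM against 30.9 and 37.2 CPM, and without it that gene passed in olea (0.40, adjusted p = 0.00138) and in pear (0.45, adjusted p = 4.68e-04), as did GB55198 in pear (0.71, adjusted p = 0.0249).

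Leaving out 1 library also ended calls in the tentacles, but not those of GB49375, and not that of GB55196 in pear. For olea minus control, GB45925 failed without control replicate 1 or 2 (adjusted p = 0.0845 and 0.0888), pear replicate 1, 2 or 3 (0.0663, 0.0665 and 0.0659) or olea replicate 1, 2 or 3 (0.123, 0.0703 and 0.121). GB53100 failed there without control replicate 1 (0.0658) or olea replicate 2 or 3 (0.0841 and 0.0835), GB55196 without olea replicate 1 or 2 (0.0639 and 0.0686), and GB47788 passed without control replicate 1 (0.0346). For pear minus control, GB45925 failed without pear replicate 1, 2 or 3 (0.0503, 0.0825 and 0.0602), GB47788 without pear replicate 2 (0.0560), and GB53100 without control replicate 1 or 3 (0.120 and 0.0782), any pear replicate (0.0526, 0.142 and 0.115) or olea replicate 2 or 3 (0.0595 and 0.0575). On log2(FPKM + 1) with limma, GB55196 in olea (0.0558) and GB53100 in pear (0.0744) failed, and without the filter on low counts GB45925 failed in olea (0.0547). With all 18 libraries in the fit, GB45925 and GB55196 failed in olea (0.0942 and 0.135), and GB45925, GB53100 and GB55196 in pear (0.0560, 0.0599 and 0.0961).

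**Figure D4:**
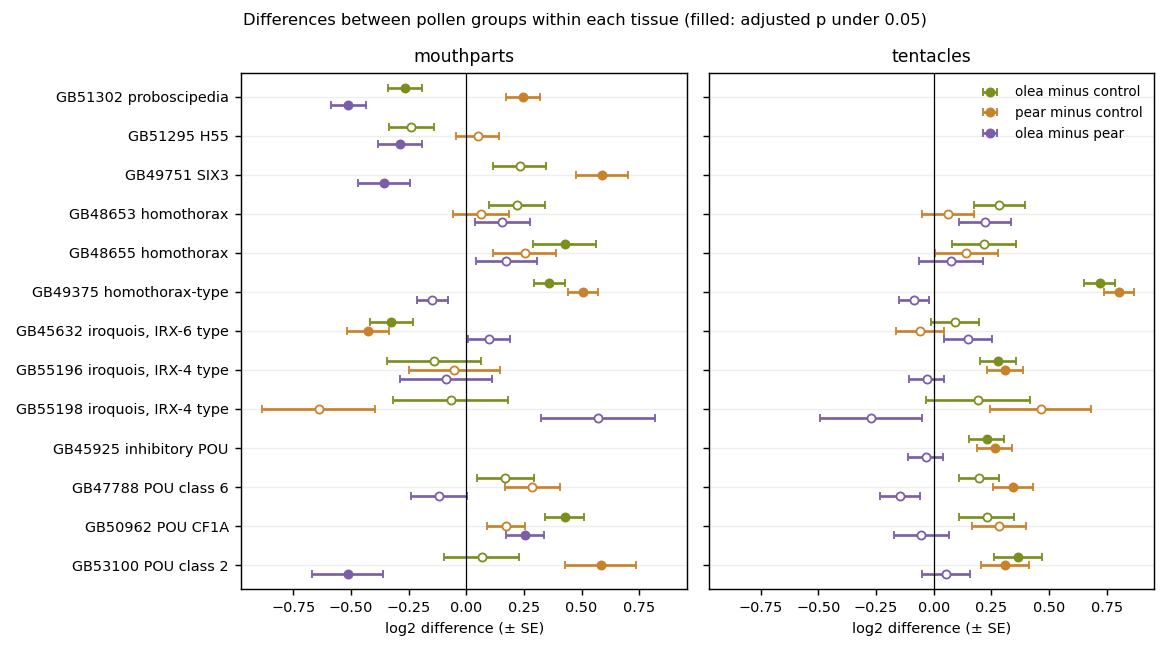
Log2 differences between pollen groups with their standard errors, in mouthparts (left) and tentacles (right), for each member that could be tested. Filled points passed at adjusted p under 0.05. GB49375 is above 0 against control for both pollens in both tissues, and proboscipedia in mouthparts is above control in pear and below it in olea.

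Whether a pollen difference differed between the tissues was tested by the interaction, the difference in mouthparts minus that in tentacles. The 4 members that passed the filter through 1 tissue only were left out of this test. For olea minus control 2 of the other 9 members passed, both with a negative interaction, as did 15.4% of all genes (4.93% positive and 10.5% negative). For pear minus control 2 passed, both negative, and 12.8% of all genes passed (5.46% positive and 7.31% negative). For olea minus pear 1 passed, negative, and 20.6% of all genes passed (7.95% positive and 12.7% negative). GB49375 had an interaction of -0.39 ± 0.09 for olea (adjusted p = 0.00740) and -0.31 ± 0.09 for pear (adjusted p = 0.0286), its higher level with pollen being larger in tentacles. GB45632 had -0.45 ± 0.14 for olea (adjusted p = 0.0350), with a lower level in olea mouthparts and a value of 0.09 ± 0.10 in olea tentacles. GB55198 had -1.12 ± 0.33 for pear (adjusted p = 0.0316), from 0.976, 0.659 and 1.03 CPM in pear and 1.30, 1.33 and 1.56 CPM in control mouthparts, and from 1.53, 1.64 and 1.80 CPM in pear and 0.978, 1.56 and 1.01 CPM in control tentacles. GB53100 had -0.58 ± 0.18 for olea minus pear (adjusted p = 0.0308).

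The interaction calls were sensitive to single libraries. GB49375 in olea passed with any 1 library left out. GB49375 in pear failed without mouthparts control replicate 2 (adjusted p = 0.0724), mouthparts pear replicate 3 (0.0792), tentacles control replicate 2 (0.0535) or tentacles pear replicate 2 (0.0934). GB45632 failed without mouthparts control replicate 1, 2 or 3 (0.0549, 0.0621 and 0.0658), mouthparts olea replicate 3 (0.0884), tentacles control replicate 1 or 3 (0.0644 and 0.0723) or tentacles olea replicate 1 or 3 (0.0616 and 0.0938). GB55198 failed without mouthparts control replicate 3 (0.0728), mouthparts pear replicate 2 (0.0761), tentacles control replicate 1 or 3 (0.0735 and 0.0575) or tentacles pear replicate 2 or 3 (0.0579 and 0.0727). GB53100 failed without mouthparts pear replicate 1 or 3 (0.0587 and 0.0846), mouthparts olea replicate 1 or 2 (0.0591 and 0.0825), tentacles pear replicate 1 (0.0779) or tentacles olea replicate 2 or 3 (0.0696 and 0.0743). GB45632 passed for pear without mouthparts pear replicate 2 (0.0426) or tentacles control replicate 2 (0.0205). With RLE size factors GB45632 in olea had -0.41 and failed (adjusted p = 0.0508). On log2(FPKM + 1) with limma, GB49375 in pear had -0.15 (0.264), GB55198 in pear -0.23 (0.0835) and GB53100 in olea minus pear -0.40 (0.0534), and all 3 failed.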

How the data were processed

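RNA of 18 libraries was sequenced after preparation with a SMARTER mRNA kit, per the labels. The authors deposited raw counts per gene, after mapping with HISAT2 per the submitters' processing notes, and FPKM values for the same genes. Genome build, annotation, counting program and the use of strand in counting: not given in the sources used here. Overlong lines of the table (70) were joined to the line before. Gene names are the table's own KEGG hit (e-value at most 1e-10) or Swiss-Prot hit, and RefSeq (Amel_HAv3.1) gave linkage groups only.

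The counts were scaled by TMM, filtered with filterByExpr on the groups and tested by the robust quasi-likelihood method of edgeR (version 4.0.16, R version 4.3.3). P-values were adjusted by Benjamini-Hochberg over all genes tested; the threshold was an adjusted p of 0.05. The fit of all 18 libraries tested 13361 genes for tissue and interaction, weighting the pollen groups equally. Pollen groups were compared in the 9 libraries of a tissue (12285 genes in mouthparts, 12950 in tentacles). Levels are CPM from the fit of 18 libraries. Standard errors derive from the F statistic. A group at 0 was set to a floor of 3 counts, with the count of the other group taken as exact. Other count ratios have exact 95% intervals.

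Alternatives were RLE size factors, DESeq2 1.42.0, limma 3.58.1 on log2(FPKM + 1) and log2(FPKM + 0.1), no filter, a replicate block, all libraries in one fit and leaving libraries out. The script was run on simulated counts, with differences planted only in genes above a set mean CPM. That run is no check of the calls of scarce members. Members and gene lists were chosen with earlier results of these data known. Genes named with values are all members, the Hox cluster genes, and from the other lists those with the smallest p or a known role in limb, antenna or head. Marker lists were neurons, olfactory neurons, muscle, photoreceptors and the royal jelly family. Members that passed filterByExpr in the fit of 1 tissue only (GB45925, GB49751, GB51295 and GB51302) have no test between tissues and no interaction test. Sequences of the members are not shown.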

Additional observations from a re-analysis of the deposited data

Results flagged for a closer look

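In 5 tests the difference between pollen groups was itself different in mouthparts and tentacles (interaction in edgeR, adjusted p under 0.05). GB49375, of the homothorax type, had a higher level with pollen in both tissues, but by less in mouthparts, with interactions of -0.39 ± 0.09 for olea minus control and -0.31 ± 0.09 for pear minus control. The pear interaction was -0.15 on log2(FPKM + 1) and did not pass (limma adjusted p = 0.264). GB45632, of the iroquois class, had -0.45 ± 0.14 for olea minus control, which did not pass with RLE size factors (adjusted p = 0.0508). GB55198, an IRX-4 type at the edge of detection, had -1.12 ± 0.33 for pear minus control, with the mouthparts lower and the tentacles higher in pear than in control by values that did not pass within either tissue. It did not pass on log2(FPKM + 1) (limma adjusted p = 0.0835). GB53100, a POU gene, had -0.58 ± 0.18 for olea minus pear, and on log2(FPKM + 1) it did not pass (adjusted p = 0.0534). Each of these 5 results is a pick from 9 members and 3 interactions. Members passing were 2 for olea minus control, 2 for pear minus control and 1 for olea minus pear. Over all genes 15.4%, 12.8% and 20.6% passed in the same order, so the counts are near the background. Only GB49375 for olea minus control passed with any 1 library left out.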

How the results depend on the processing

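With the replicate number as a block, the tissue count was again 8 of 9, and no call of a tested member value changed. Deviations of same-numbered libraries correlated at -0.0698 to 0.0617 within a tissue (18 pairs) and at -0.0634 to 0.101 across tissues (27 pairs). The 1 pair over 0.1 was mouthparts control replicate 1 with tentacles control replicate 1. Whether libraries of the same number came from the same bees cannot be told from these values. Of 129 member values tested, 61 passed, 28 of these lost the call under at least 1 alternative and 14 others gained it; the cause was not tested.

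On log2(FPKM + 1), 9 tested values changed sign, and 1 of these was a called one, GB49375 in the tissue difference within olea (-0.0805). On log2(FPKM + 0.1) the numbers were the same, with GB49375 at -0.0831. Members passing in mouthparts, pear minus control, were 8 on both FPKM scales, and within olea 5 passed between tissues on both. In mouthparts, pear minus control, the median difference of all genes was 0.11 on log2(FPKM + 1) and 0.14 on log2(FPKM + 0.1). With TMM scaling it was 0.01. For the pear minus control interaction 0 passed on either scale (limma, 1 with an unadjusted p under 0.05), and for olea minus pear 0 passed on log2(FPKM + 1) (1 with an unadjusted p under 0.05). With RLE size factors 1 passed in the olea minus control interaction. Without the filter 1 passed in tentacles, olea minus pear, and 1 passed there in the fit of all 18 libraries. Both fits let in the 3 named rows, and none of the 10 members tested in the main fit changed its call. The gene that passed was thus a named row, which is scarce in tentacles. In the fit of all 18 libraries 2 passed in tentacles, pear minus control, and 2 in mouthparts, olea minus pear. Without the replicate 2 libraries of the mouthparts, 2 passed in olea minus control and 2 in olea minus pear. In the same fit 0 passed in the pear minus control and olea minus pear interactions (edgeR).

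With 1 library left out, counts ran from 8 to 8 for tissue, 7 to 8 within olea, 8 to 9 within pear and 7 to 8 within control. In mouthparts they ran from 2 to 5 for olea minus control, 3 to 6 for pear minus control and 2 to 4 for olea minus pear, and in tentacles from 1 to 4, 2 to 7 and 0 to 0 for the same comparisons. For the interactions they ran from 1 to 2 for olea minus control, 0 to 2 for pear minus control and 0 to 1 for olea minus pear. Depth limits proboscipedia, H55 and SIX3 in tentacles and GB45925 in mouthparts, where a library holds 13 counts or fewer.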

Other observations

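Some other homeodomain genes, picked for a known role in appendages or head, differed between mouthparts and tentacles, as did 82.5% of all genes. Of the 27 other homeodomain genes that passed the filter in both tissues, 12 were higher and 14 lower in mouthparts. The aristaless models GB42227, GB42226 and GB40331, which in Drosophila act at the tips of legs and antennae, were all higher in mouthparts, at 55.8 ± 10.8, 18.7 ± 3.32 and 8.84 ± 2.36 CPM in mouthparts and 14.8 ± 2.55, 4.92 ± 1.03 and 2.19 ± 0.380 CPM in tentacles (SD, n = 9 each; log2 differences 1.91 to 1.98). All of these models have the same honey bee gene as best hit, so they may be pieces of a gene model. Their near-equal differences may then be a single observation. A further gene with the aristaless name, GB49866, was lower in mouthparts, with a log2 difference of -0.79 ± 0.05. GB54432, named aristaless-like and with more counts (44575 over all libraries), is not described here. The posterior compartment genes E30 (GB55322, engrailed) and invected (GB55332) were lower in mouthparts by nearly the same amount, -0.52 ± 0.09 and -0.52 ± 0.08. The head gene empty spiracles (GB52912) was lower in mouthparts at -1.24 ± 0.14, and otd2 (GB45501) was higher at 0.98 ± 0.08. Among Hox genes, Deformed (GB51299) was lower in olea than in pear mouthparts by -0.28 ± 0.06, a direction shared with proboscipedia and H55. The direction was not particular to Hox genes. Of the 33 other homeodomain genes tested there, Deformed among them, 11 were lower in olea and 1 higher. Over all genes 15.9% were lower and 14.9% higher.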
